A study of Mus musculus with 24 samples.

Results

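Cadherins and the transcription factors that act on them during the epithelial-to-mesenchymal transition (EMT) were followed across 24 RNA-seq libraries of 2 mouse mammary tumor lines. The genes were matched by symbol from a list drawn up with earlier results of these data known, and comprised 10 of the 35275 genes listed for cultured cells and of the 54532 listed for tumors: Cdh1, Cdh2, Epcam and Vim, and the factors Snai1, Snai2, Twist1, Twist2, Zeb1 and Zeb2. Both lines, D2.1 and D2A1, came from hyperplastic alveolar nodules of the mouse mammary gland, and the study used D2.1 as a dormant and D2A1 as a rapidly growing tumor. Libraries were made from each line in culture (n = 3 per line), and from single tumors grown in mammary fat pads of immunocompetent Balb/c females, which have a complete immune system (n = 4 per line), or of SCID beige females, which lack T and B cells and have defective NK cells (n = 5 per line). The labels name no agent and no genetic change of the cells in any group. By the strain names in the paper, SCID beige mice carry mutations of Prkdc and Lyst and are another strain than the Balb/c mice. Each group rests on 1 cell line. The labels do not say whether replicates in culture were separate cultures, so p-values in culture measure only the spread between these samples.

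EMT is a program in which epithelial cells loosen their junctions and take on traits of mesenchymal cells. E-cadherin, the product of Cdh1, joins epithelial cells at adherens junctions, and Epcam encodes another surface protein of epithelia. Cdh2 encodes N-cadherin, which is classically gained when E-cadherin is lost, and Vim encodes vimentin, the intermediate filament of mesenchymal cells and fibroblasts. The zinc finger factors of the Snail family (Snai1, Snai2) and of the Zeb family (Zeb1, Zeb2) repress Cdh1 through E-box sequences of the form CACCTG, and the basic helix-loop-helix factors Twist1 and Twist2 promote the program as well. Carcinoma cells that hold epithelial and mesenchymal transcripts together are called hybrid.

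The E-box that Snail and Zeb factors bind was looked for in the promoter windows that RefSeq gives for these genes on GRCm38.p6, from 250 bases before to 50 bases after the start of transcription. Such windows were at hand for 6 of the 10 genes (Epcam, Vim, Snai1, Twist1, Twist2 and Zeb2). The letters searched were CACCTG and CAGGTG, which are the same site read on the 2 strands, and 20.2% of all 32851 windows held them. They were present in the windows of 2 genes, Epcam and Snai1, and absent from these windows of the other 4. Both are printed below up to the start of transcription, since one is an epithelial gene that Zeb and Snail factors could act on and the other is a Snail gene itself. In Epcam (chr17:87635729-87635978, + strand) the matches began 187 and 19 bases before the start, and in Snai1 (chr2:167537945-167538194, + strand) the match began 126 bases before it. Capitals mark the matches, which describe the letters and not a site in use.
Epcam: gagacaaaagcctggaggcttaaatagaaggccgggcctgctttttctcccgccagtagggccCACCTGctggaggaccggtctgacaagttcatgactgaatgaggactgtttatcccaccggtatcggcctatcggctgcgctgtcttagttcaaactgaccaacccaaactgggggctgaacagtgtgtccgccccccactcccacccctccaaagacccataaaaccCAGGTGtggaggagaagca
Snai1: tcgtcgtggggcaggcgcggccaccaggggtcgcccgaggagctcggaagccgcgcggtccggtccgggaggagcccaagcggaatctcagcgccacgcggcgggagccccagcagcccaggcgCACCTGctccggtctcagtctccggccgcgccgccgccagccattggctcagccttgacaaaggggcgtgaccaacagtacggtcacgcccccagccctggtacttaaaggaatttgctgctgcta

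Levels are given as CPM, the counts relative to library size after TMM scaling of all 24 libraries together, when libraries are compared for 1 gene, and as the deposited FPKM, which divide by gene length, when genes are compared within 1 group. By FPKM, Vim was the most abundant of the 10 genes in every group, at 2006 ± 361 (SD, n = 3) in D2.1 culture and 1841 ± 177 (n = 3) in D2A1 culture. Twist1 came next in D2A1 culture, at 61.7 ± 7.96 FPKM, followed by Snai1 at 7.26 ± 1.90 FPKM. In D2.1 culture Twist1 (50.6 ± 13.1 FPKM) and Snai1 (45.3 ± 6.94 FPKM) were next after Vim and within 1 SD of each other, followed by Snai2 at 27.3 ± 8.97 FPKM. Cdh1 had rank 6 of 10 in D2.1 culture, at 6.67 ± 0.879 FPKM, and rank 7 in D2A1 culture, at 0.326 ± 0.106 FPKM. Cdh2 was last in all 6 groups and stayed at or below 0.161 FPKM on average, so its transcript was rare in both lines, in culture and in tumors.

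In tumors the order by FPKM was led by the same genes, with Vim between 3252 ± 52.9 in D2A1 tumors of Balb/c mice and 4931 ± 753 in D2.1 tumors of the same host (n = 4 each). Twist1 and Snai1 came next, and their neighbouring means differed by less than 1 SD in D2.1 tumors of SCID beige mice (74.2 ± 13.5 and 74.7 ± 20.2 FPKM, n = 5). Zeb2 had rank 4 in every tumor group, at 29.4 to 46.9 FPKM on average, and Zeb1 rank 5, at 15.1 to 21.96 FPKM. The deposited tumor FPKM, however, imply a length of 2189 bases for Zeb2 and 1727 for Zeb1, whereas those of cultured cells imply 9113 and 5805. With the latter lengths, Zeb2 in tumors would be at 7.06 to 11.3 FPKM and Zeb1 at 4.50 to 6.53 FPKM. FPKM were therefore compared only within culture or within tumors, and ranks among neighbouring genes in tumors depend on these lengths.

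**Figure D1:**
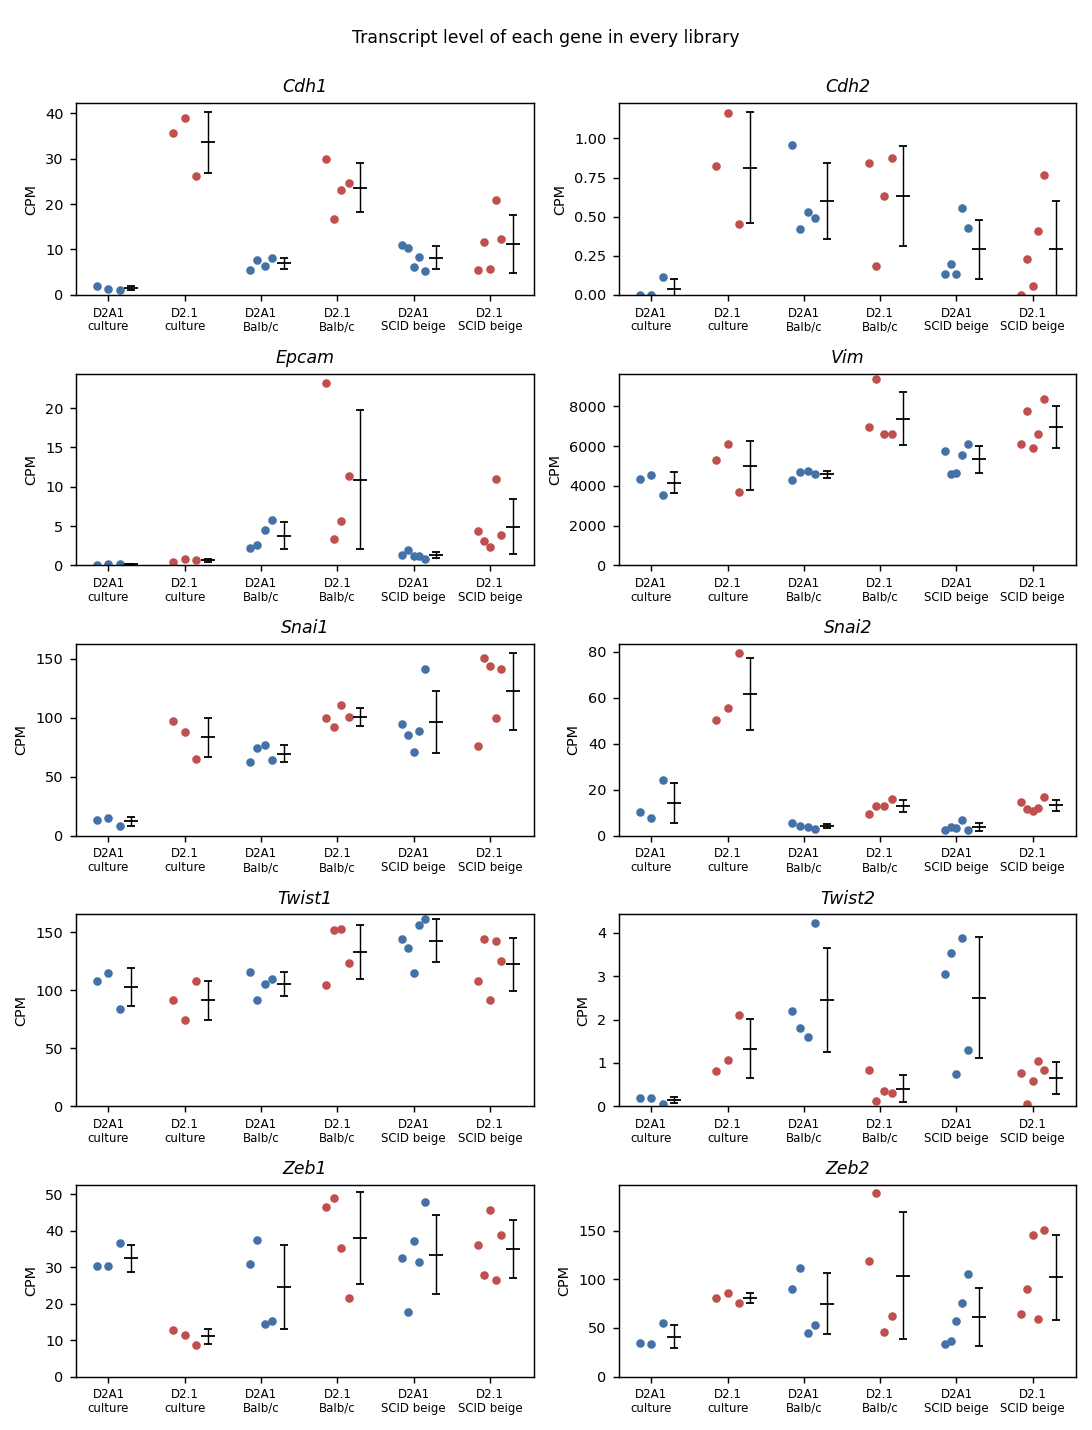
Transcript level of each gene as CPM (y axis, linear, own scale per gene) in every library, by group (x axis), with D2A1 in blue and D2.1 in red. Points are single libraries and the bars give the mean ± SD of 3 to 5 libraries (cut at 0 for Cdh2 in D2.1 tumors of SCID beige mice). Cdh1 lies at 26.1 to 38.9 CPM in D2.1 culture and at 1.03 to 2.03 CPM in D2A1 culture, and the lines overlap in SCID beige tumors.

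The first comparison asked how the lines differ in culture, where no host cells are present. D2.1 cells had more transcripts of the epithelial gene Cdh1 and also of the repressors Snai1, Snai2, Twist2 and Zeb2, whereas Zeb1 was the only tested gene of the 10 called lower. Of the 8 genes that passed the expression filter, 5 were higher and 1 was lower in D2.1 cells, by the quasi-likelihood test of edgeR with a Benjamini-Hochberg adjusted p under 0.05. Twist2, among the 5, had 1 to 3 counts in D2A1 cultures and passed the filter only through its D2.1 counts, so its call adds no support. Of all 12489 genes tested, 44.9% were called, 24.2% as higher and 20.7% as lower. The groups did not overlap for these 6 genes, as for 55.6% of all genes. The 8 genes had a median of 1.54 on the log2 scale, beside -0.02 over all genes tested.

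Cdh1 (ENSMUSG00000000303, chr8:106603351-106670246 of GRCm38) was at 35.7, 38.9 and 26.1 CPM in the D2.1 cultures and at 2.03, 1.40 and 1.03 CPM in the D2A1 cultures. The lowest D2.1 library was far above the highest D2A1 library. The log2 fold change was 4.49 (standard error, SE, 0.28, adjusted p = 4.9e-06), a 22.4-fold difference, the largest among the 8 tested genes. Epcam (ENSMUSG00000045394, chr17:87635979-87651129) had 7, 16 and 12 counts in D2.1 and 1, 2 and 4 in D2A1 cultures, too few for the filter. The ratio of its counts per library total was 4.10 (95% interval 1.80 to 10.9, counting error only). Cdh2 (ENSMUSG00000024304, chromosome 18), with 14, 24 and 8 counts in D2.1 and 0, 0 and 2 in D2A1 cultures, did not pass it either, and its ratio was 18.9 (95% interval 4.94 to 160.5). Both were called higher in D2.1 when no filter was applied (log2 fold change 2.11, adjusted p = 0.033 for Epcam, and 4.13, adjusted p = 0.0016 for Cdh2), on D2A1 counts at or near the floor of 3, which corresponds to 0.121 to 0.178 CPM at these depths. Vim (ENSMUSG00000026728, chr2:13573927-13582826) was at 5277, 6089 and 3669 CPM in D2.1 and 4348, 4541 and 3548 CPM in D2A1 cultures. These overlap, and the log2 difference of 0.26 (SE 0.23, adjusted p = 0.39) was within the spread.

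Among the Snail genes, Snai1 (ENSMUSG00000042821, chr2:167538195-167542814) was at 97.3, 88.0 and 64.8 CPM in D2.1 cultures and at 13.4, 14.8 and 8.16 CPM in D2A1 cultures. Snai2 (ENSMUSG00000022676, chr16:14705852-14709385) was at 50.2, 55.4 and 79.5 CPM against 10.3, 7.91 and 24.1 CPM. All D2.1 libraries exceeded all D2A1 libraries for both, by log2 fold changes of 2.77 (SE 0.25, adjusted p = 4.1e-05) and 2.12 (SE 0.39, adjusted p = 0.0025). The libraries with the highest Snai2 in each line, both replicate 3, had the lowest Snai1.

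Twist1 (ENSMUSG00000035799, chr12:33957671-33959829) did not separate the lines in culture, with 91.7, 74.1 and 108 CPM in D2.1 and 108, 115 and 84.0 CPM in D2A1 (log2 fold change -0.17, SE 0.18, adjusted p = 0.47). Twist2 (ENSMUSG00000007805, chr1:91801461-91848028) was far less abundant, with 14, 22 and 37 counts in D2.1 and 3, 3 and 1 in D2A1 cultures. Its ratio of counts was 8.56 (95% interval 3.95 to 22.03), and the fitted difference was called (log2 fold change 3.18, SE 0.62, adjusted p = 0.0031). Gm29100, a gene annotated on the opposite strand of the Twist2 locus, had 91 to 172 counts in D2.1 and 5 to 12 in D2A1 cultures. Since no strand setting is stated for the counting, reads of Twist2 and of Gm29100 cannot be told apart.

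The Zeb genes went opposite ways. Zeb1 (ENSMUSG00000024238, chromosome 18) was at 12.7, 11.5 and 8.76 CPM in D2.1 cultures and at 30.4, 30.4 and 36.8 CPM in D2A1 cultures, whereas Zeb2 (ENSMUSG00000026872, chr2:44983632-45117395) was at 80.8, 86.0 and 75.7 CPM against 34.5, 33.8 and 54.8 CPM. Neither gene overlapped between the lines. Zeb1 fell by 1.57 on the log2 scale (SE 0.18, adjusted p = 1.55e-04) and Zeb2 rose by 0.97 (SE 0.19, adjusted p = 0.0037). For each of the 6 genes called, the exact 2-sided permutation test of log2 CPM gave p = 0.10, the smallest that 3 libraries against 3 can give.

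The next comparisons asked whether the lines differ in the same genes as tumors. In Balb/c mice, D2.1 tumors had more Cdh1, Snai1, Snai2 and Vim transcript and less Twist2 than D2A1 tumors, while Zeb1, Zeb2, Twist1, Epcam and Cdh2 did not pass the test. Thus 5 of 10 tested genes were called (4 higher, 1 lower), against 32.6% of the 14953 genes tested (16.8% higher, 15.8% lower). Twist2, among the 5, passed the filter only through its D2A1 counts, so its call and its lack of overlap add no support. With a log2 fold change beyond 1 as a further condition, 3 of 10 were called, against 19.7% of all genes. The groups of tumors did not overlap for these 5 genes, as for 34.2% of all genes, and the 10 had a median of 0.57 on the log2 scale, beside -0.02 over all genes. Of the 5, 4 were called without replicates 1 and 4 of the D2.1 tumors, in which transcripts of milk proteins or skin keratins were found (Cdh1, Vim, Snai2 and Twist2). These are whole tumors, where fewer cells of a type and less RNA per cell cannot be told apart.

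Cdh1 in Balb/c mice was at 29.9, 16.7, 23.1 and 24.6 CPM in the D2.1 tumors and at 5.59, 7.78, 6.26 and 8.22 CPM in the D2A1 tumors. The lowest D2.1 tumor thus stood above the highest D2A1 tumor, with a log2 fold change of 1.75 (SE 0.24, adjusted p = 4.0e-04, exact permutation p = 0.0286, the smallest for 4 against 4). Without D2.1 replicates 1 and 4 it was 1.47 (adjusted p = 0.0075). Epcam was at 23.2, 3.40, 5.60 and 11.4 CPM in D2.1 tumors and at 2.20, 2.57, 4.55 and 5.76 CPM in D2A1 tumors. Its highest levels were those of D2.1 replicates 1 and 4, and the other D2.1 tumors lay among the D2A1 tumors. Replicate 1 had a summed level of 432 CPM over 6 milk and mammary markers (Csn1s1, Csn2, Csn3, Wap, Lalba and Lcn2), where the other 17 tumors had 3.13 to 41.2 CPM, and replicate 4 had 157 CPM over the keratinocyte markers, where the others had at most 46.3 CPM. The log2 difference of Epcam was 1.54 (SE 0.57, adjusted p = 0.064), and 0.20 (adjusted p = 0.81) without both tumors. With DESeq2 (adjusted p = 0.019), with all tumors in 1 fit (0.038) or without D2.1 replicate 2 (0.015) it passed the threshold.

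Vim in Balb/c mice was at 6985, 9360, 6620 and 6586 CPM in D2.1 tumors and at 4312, 4682, 4743 and 4588 CPM in D2A1 tumors. The D2A1 tumors were nearly equal, and all D2.1 tumors were above them (log2 fold change 0.67, SE 0.16, adjusted p = 0.0080). Fibroblasts of the host express Vim as well, and the 7 fibroblast markers (Pdgfra, Dcn, Lum, Dpt, Pi16, Mfap5 and Clec3b) summed to 898 to 1389 CPM in these D2.1 tumors and to 149.6 to 185 CPM in the D2A1 tumors, with none of the 7 at 0 in any tumor. Pdgfra, the largest part of the sum in these D2.1 tumors (mean 401 CPM, against 29.3 CPM in D2A1), was also at 70.2 CPM in D2.1 and 7.55 CPM in D2A1 culture, which hold no host tissue. Dcn, Lum and Dpt, which had at most 8 counts in any culture, had means of 150.2 to 315 CPM in the D2.1 and 14.5 to 38.4 CPM in the D2A1 tumors. Across all 18 tumors, the deviations of Vim and of this sum from their group means had a Pearson r of 0.58, and the part of fibroblasts in the Vim difference was not tested.

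Snai2 in Balb/c mice was at 9.51, 12.8, 12.9 and 15.8 CPM in D2.1 tumors and at 5.36, 4.13, 4.02 and 3.13 CPM in D2A1 tumors. The groups were apart (log2 fold change 1.60, SE 0.27, adjusted p = 0.0012). Snai2 and the fibroblast marker sum had a Pearson r of 0.91 over the 18 tumors, and 0.15 for deviations from group means. The part of fibroblasts in the Snai2 difference was not tested. Snai1 was at 99.6, 91.9, 111 and 101 CPM against 62.8, 74.4, 77.3 and 64.3 CPM. These groups did not overlap either, but the log2 fold change was only 0.52 (SE 0.14, adjusted p = 0.018), and it missed the threshold without D2.1 replicate 3, D2A1 replicate 1 or D2A1 replicate 4 (adjusted p of 0.054 to 0.061), with no filter (0.053), with all tumors in 1 fit (0.067) and without D2.1 replicates 1 and 4 (0.11).

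Twist2 had the opposite sign of its difference in culture. In Balb/c mice it was at 0.841, 0.123, 0.343 and 0.312 CPM in the D2.1 tumors (2 to 16 counts) and at 2.20, 1.79, 1.59 and 4.22 CPM in D2A1 tumors (27 to 77 counts). No D2.1 tumor reached the lowest D2A1 tumor, and the log2 fold change was -2.56 (SE 0.60, adjusted p = 0.0083). Twist2 passed the filter here only through the D2A1 tumors, so neither this call nor the change of sign adds support. Gm29100 on the opposite strand had 4 to 22 counts in these D2.1 tumors and 23 to 50 in the D2A1 tumors. Twist1 was at 105, 152, 152 and 123 CPM in D2.1 and 116, 91.3, 105 and 109.8 CPM in D2A1 tumors, which overlap (log2 fold change 0.32, SE 0.15, adjusted p = 0.14).

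In Balb/c mice, Zeb1 and Zeb2 each had a wider range within a line than the difference between the means of the lines. Zeb1 was at 46.5, 48.9, 35.3 and 21.5 CPM in D2.1 tumors 1 to 4 and at 30.8, 37.6, 14.3 and 15.3 CPM in D2A1 tumors 1 to 4. Zeb2 was at 118, 189, 45.5 and 62.2 CPM and at 89.6, 112, 45.0 and 53.1 CPM in the same order. Tumors numbered 1 and 2 were above those numbered 3 and 4 in both lines and for both genes. Neither difference passed the threshold (Zeb1 0.61, SE 0.36, adjusted p = 0.22; Zeb2 0.44, SE 0.43, adjusted p = 0.47). With the replicate number as a block, both were called. Zeb1 had a log2 fold change of 0.67 (adjusted p = 0.0096) and Zeb2 one of 0.34 (adjusted p = 0.046). Among the Balb/c tumors, only those numbered 2 correlated best with their own number. The correlations of same-numbered tumors do not establish pairs, so these calls rest on a pairing that is not established. The labels do not say what tumors of 1 number share.

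**Figure D2:**
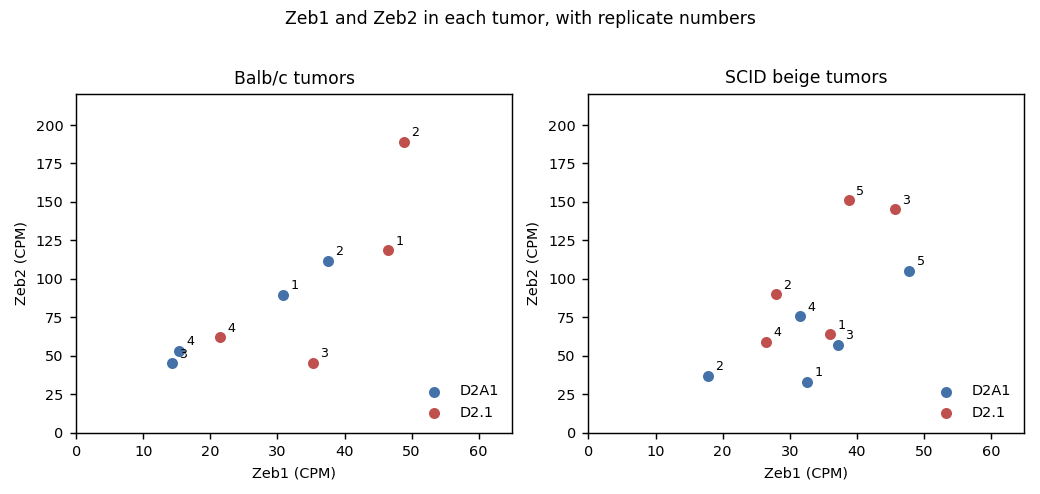
Zeb1 (x axis) and Zeb2 (y axis) as CPM in each tumor of Balb/c mice (left) and SCID beige mice (right), D2A1 in blue and D2.1 in red, with the replicate number beside each point. In Balb/c mice replicates 1 and 2 of both lines lie at 30.8 to 48.9 CPM of Zeb1 and 89.6 to 189 CPM of Zeb2, and replicates 3 and 4 at 14.3 to 35.3 and 45.0 to 62.2 CPM.

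In SCID beige mice, D2.1 tumors had more Epcam and Snai2 and less Twist2 transcript than D2A1 tumors. These were the 3 called of 9 tested genes, against 32.1% of the 14355 genes tested (17.2% higher, 14.8% lower), and Cdh2 did not pass the filter, with 0 to 12 counts per tumor. The lines did not overlap for Epcam and Snai2 (for 23.7% of all genes), and the 9 had a median of 0.38 on the log2 scale, beside 0.02 over all genes.

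Epcam in SCID beige mice was at 4.32, 3.09, 2.38, 10.96 and 3.83 CPM in D2.1 tumors and at 1.29, 1.94, 1.16, 1.23 and 0.861 CPM in D2A1 tumors. Replicate 4 of the D2.1 tumors was far above the rest, but the other 4 also exceeded every D2A1 tumor (log2 fold change 1.92, SE 0.45, adjusted p = 0.0054). Without that tumor the log2 fold change was the lowest of those with each tumor left out, 1.33, and the adjusted p over these fits was at most 0.016. Milk markers summed to 3.13 to 13.9 CPM and keratinocyte markers to 1.06 to 3.72 CPM in these D2.1 tumors. Replicate 4, the highest in Epcam, had the highest sums of muscle markers (260.9 CPM, the others 1.42 to 208 CPM) and of adipocyte markers (59.8 CPM, the others 2.96 to 57.6 CPM) among them, and the part of host tissue in its Epcam level was not tested. Snai2 was at 14.6, 11.7, 10.7, 12.2 and 16.8 CPM in D2.1 tumors and at 2.38, 3.74, 3.54, 6.89 and 2.58 CPM in D2A1 tumors (log2 fold change 1.78, SE 0.30, adjusted p = 5.45e-04). For both genes the exact permutation p was 0.00794, the smallest for 5 against 5.

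Twist2 in SCID beige mice was at 0.769, 0.0572, 0.580, 1.04 and 0.831 CPM in D2.1 tumors and at 3.05, 3.54, 0.748, 3.88 and 1.29 CPM in D2A1 tumors. Replicate 3 of the D2A1 tumors lay among the D2.1 tumors, and the log2 fold change was -1.93 (SE 0.62, adjusted p = 0.030). It missed the threshold without D2.1 replicate 3 or D2A1 replicate 1, 2 or 4 (adjusted p of 0.054 to 0.075). Gm29100 went the other way here, with 28 to 140 counts in D2.1 and 14 to 55 in D2A1 tumors, where Twist2 had 1 to 18 and 11 to 63 counts. Cdh1 was at 5.38, 11.7, 5.80, 20.9 and 12.2 CPM in D2.1 tumors and at 10.997, 10.4, 6.12, 8.37 and 5.23 CPM in D2A1 tumors. Of the D2.1 tumors, 3 were above all D2A1 tumors and the other 2 lay among the lowest D2A1 tumors, and the log2 difference was 0.44 (SE 0.37, adjusted p = 0.40).

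The D2.1 tumors of SCID beige mice that were high in Cdh1 were also those with transcripts of skeletal muscle. The 6 muscle markers (Acta1, Ckm, Myh4, Myh1, Mylpf and Tnnt3) summed to 1.42 and 1.51 CPM in replicates 1 and 3, to 18.5 CPM in replicate 2, and to 260.9 and 208 CPM in replicates 4 and 5. In Balb/c mice they summed to 48.2 to 345 CPM in D2.1 tumors, and in D2A1 tumors of both hosts to 2.34 to 69.3 CPM. Over the 18 tumors, the deviations of Cdh1 and of the muscle sum from their group means had a Pearson r of 0.77. In D2.1 culture, where Cdh1 was at 33.6 ± 6.65 CPM, muscle markers summed to 4.58 to 6.58 CPM with 3 of 6 at 0. The part of host muscle, or of any tissue taken with it, in the tumor levels of Cdh1 was not tested.

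The other genes did not pass in SCID beige mice. Vim was at 5894 to 8379 CPM in D2.1 and 4612 to 6097 CPM in D2A1 tumors (log2 fold change 0.38, SE 0.16, adjusted p = 0.093), and was called with DESeq2 (adjusted p = 0.046) and with all tumors in 1 fit (0.044). Zeb2 ranged from 59.2 to 151 CPM and from 33.0 to 105 CPM (0.72, SE 0.34, adjusted p = 0.12), and it was called without D2A1 replicate 5 (0.99, adjusted p = 0.034). Zeb1 had a mean of 35.0 ± 7.95 CPM in D2.1 and 33.4 ± 10.9 CPM in D2A1 tumors (0.06, SE 0.24, adjusted p = 0.87). Snai1 was at 122 ± 32.9 and 96.4 ± 26.7 CPM (0.33, SE 0.22, adjusted p = 0.27), and Twist1 at 122 ± 22.7 and 143 ± 18.3 CPM (-0.23, SE 0.16, adjusted p = 0.30).

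**Figure D3:**
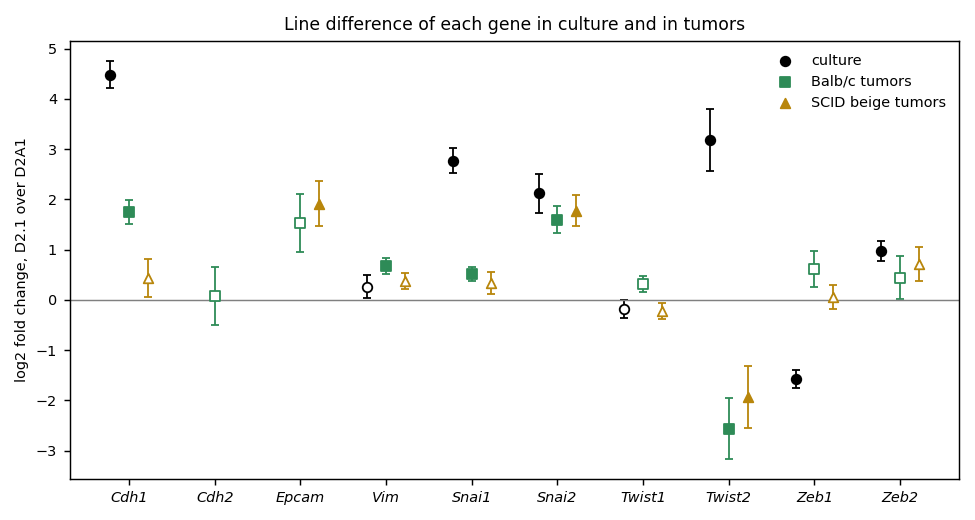
Log2 fold change of D2.1 over D2A1 (y axis) for each gene (x axis) in culture (black circles), Balb/c tumors (green squares) and SCID beige tumors (ochre triangles). Bars are ± 1 standard error and filled symbols have an adjusted p under 0.05. Cdh1 stands at 4.49, 1.75 and 0.44, and Twist2 at 3.18, -2.56 and -1.93. Missing symbols did not pass the expression filter.

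Host comparisons asked whether these genes differ between the hosts, where adaptive immunity, NK cells and strain cannot be told apart. None of the 10 was called between Balb/c and SCID beige mice, either in D2.1 tumors (133 of 14929 genes called, 0.891%) or in D2A1 tumors (170 of 14572, 1.17%, with 9 of the 10 genes tested). At an unadjusted p under 0.05, 1 of the 10 stood out in D2.1 tumors (9.97% of all genes) and 3 of 9 in D2A1 tumors (10.1% of all genes). The first was Cdh1, with a mean of 23.6 ± 5.43 CPM in Balb/c mice (n = 4) and 11.2 ± 6.30 CPM in SCID beige mice (n = 5). Replicate 4 of the SCID beige group, at 20.9 CPM, lay above the lowest Balb/c tumor, and the log2 difference was 1.09 (SE 0.38, adjusted p = 0.28, exact permutation p = 0.0397). In D2A1 tumors they were Epcam, at 3.77 ± 1.68 CPM in Balb/c and 1.30 ± 0.395 CPM in SCID beige mice, with no overlap as for 5.37% of all genes (1.54, SE 0.37, adjusted p = 0.081), Twist1 (-0.43, SE 0.14, adjusted p = 0.21) and Snai1 (-0.46, SE 0.19, adjusted p = 0.42). DESeq2 called 2 of these, Epcam (adjusted p = 0.0092) and Twist1 (adjusted p = 0.042), and called 0 in D2.1 tumors.

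Whether the host effect differed between lines was tested by an interaction over all 18 tumors, which called 0 of the 10 genes and 3 of 16036 genes in all (0.0187%). DESeq2 called 0 of the 10 as well. At an unadjusted p under 0.05 the interaction held 2 of the 10, against 8.45% of all genes. For Cdh1 it was 1.31 (SE 0.48, adjusted p = 0.46), with D2A1 tumors at 6.96 ± 1.24 CPM in Balb/c and 8.23 ± 2.55 CPM in SCID beige mice. For Twist1 it was 0.54 (SE 0.22, adjusted p = 0.52).

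Tumors were then set against culture of the same line, with SCID beige tumors since these hold few T cells (0.984 to 19.8 CPM summed over 6 markers, against 6.04 to 162 CPM in Balb/c mice). In D2.1 tumors of SCID beige mice, Cd4 (mean 7.51 CPM) and Cd2 (4.22 CPM) led this sum. Cd3d, Cd3e, Cd3g and Cd8a had means of 0.103 to 0.697 CPM there, and of at most 0.115 CPM in D2A1. Host cells are part of this comparison: 8 macrophage markers summed to 1694 to 3767 CPM in SCID beige tumors and to 1.34 to 11.7 CPM in culture. The separate tables of cells and tumors, the host cells and growth in the animal cannot be told apart here, and such differences are large genome-wide, with 53.1% of 14111 genes called in D2.1 (30.8% higher in tumors, 22.3% lower) and 58.1% of 13869 in D2A1 (33.6% higher, 24.5% lower). In D2.1, 4 of 10 genes were called. Epcam, among the 4, passed the filter only through its tumor counts, so its call adds no support. Epcam rose from 0.623 ± 0.189 CPM in culture to 4.92 ± 3.46 CPM in tumors (log2 fold change 2.98, SE 0.60, adjusted p = 0.0017), and Zeb1 from 11.002 ± 2.03 to 35.0 ± 7.95 CPM (1.68, SE 0.24, adjusted p = 1.7e-04). Cdh1 was lower in tumors, at 11.2 ± 6.30 against 33.6 ± 6.65 CPM (-1.56, SE 0.39, adjusted p = 0.0058), and so was Snai2, at 13.2 ± 2.47 against 61.7 ± 15.6 CPM (-2.21, SE 0.21, adjusted p = 1.0e-05).

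In D2A1, 6 of 9 genes were called between SCID beige tumors and culture, and Cdh1 was called in the opposite direction to D2.1. Cdh1 rose from 1.49 ± 0.507 to 8.23 ± 2.55 CPM (2.45, SE 0.37, adjusted p = 1.7e-04) and Snai1 from 12.1 ± 3.50 to 96.4 ± 26.7 CPM (2.98, SE 0.28, adjusted p = 5.2e-06). Twist2 rose from 0.141 ± 0.0731 to 2.50 ± 1.40 CPM, with 1 to 3 counts per library in culture, and Epcam from 0.137 ± 0.0844 to 1.30 ± 0.395 CPM. Their log2 fold changes were 4.07 (SE 0.74, adjusted p = 6.9e-04) and 3.14 (SE 0.59, adjusted p = 8.8e-04). Both genes passed the filter only through their tumor counts, so these calls add no support. Snai2 fell by 1.89 on the log2 scale (SE 0.41, adjusted p = 0.0023), from 14.1 ± 8.76 to 3.83 ± 1.81 CPM. Twist1 was called by a narrow margin (0.47, SE 0.16, adjusted p = 0.029) and missed it without D2A1 culture replicate 1 or 3 or tumor replicate 4 (adjusted p of 0.059 to 0.13) and with no filter (0.065).

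The interaction of line and setting tested whether the line difference in SCID beige tumors was the same as in culture, and a shift between the tables that both lines share cancels in it. It called 4 of the 10 genes (12.8% of 15077 genes in all, 8.18% lower and 4.62% higher). The line difference of Cdh1 was smaller in tumors (log2 value -4.03, SE 0.58, adjusted p = 1.0e-04), as was that of Snai1 (-2.43, SE 0.36, adjusted p = 1.3e-04). That of Twist2 turned its sign (-5.09, SE 1.05, adjusted p = 0.0027), but Twist2 had 1 to 3 counts per library in D2A1 culture. The call of Twist2 therefore adds no support. The line difference of Zeb1 was higher in tumors (1.64, SE 0.36, adjusted p = 0.0040), from -1.57 in culture to 0.06 in tumors. For Snai2 the interaction was -0.34 (SE 0.50, adjusted p = 0.75). Cdh2 had a large estimate on few counts (-4.15, SE 1.49, adjusted p = 0.080), which was called without D2.1 tumor replicate 5 (-4.83, adjusted p = 0.038).

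Genes around the 10 were described by 4 lists. The counts called include genes that passed the filter only through the group where they were high, and such calls add no support. The mesenchymal output of EMT (matrix genes, integrins, proteases and contractile genes) was higher in D2.1 culture in 21 of 25 tested genes and lower in 0, and its median on the log2 scale was 2.14, beside -0.02 over all genes, of which 24.2% were called higher. Col3a1, a fibrillar collagen, had 194 to 613 counts in D2.1 and 0 to 12 in D2A1 cultures (5.69, SE 0.67, adjusted p = 1.9e-04), and Ncam1, a neural adhesion molecule, had a log2 fold change of 5.41 (adjusted p = 6.3e-07). In tumors fewer of this list were higher in D2.1, namely 12 of 28 in Balb/c (2 lower, median 0.53) and 11 of 27 in SCID beige mice (5 lower, median 0.24), against 16.8% and 17.2% of all genes higher and 15.8% and 14.8% lower. There were 10 higher and 5 lower in Balb/c mice without D2.1 replicates 1 and 4. With the replicate block, 15 were higher and 5 lower. The shares of all genes in these settings are not given here. Ncam1 stayed high, with log2 fold changes of 4.67 (adjusted p = 8.9e-07) and 4.73 (adjusted p = 9.5e-07), and the gelatinase gene Mmp9 had 3.05 (adjusted p = 1.2e-06) and 3.01 (adjusted p = 1.3e-05). Thbs1, which encodes thrombospondin 1, was lower in both hosts (-3.89, adjusted p = 3.8e-05, and -4.02, adjusted p = 6.6e-06), and Itgb3, an integrin subunit, was lower in SCID beige mice (-1.73, adjusted p = 2.0e-04). In culture Itgb3 went the other way, with 604 to 1221 counts in D2.1 and 64 to 200 in D2A1 (ratio 6.30, 95% interval 5.63 to 7.08). The interaction of line and setting was called lower in 15 of 28 genes of the list and higher in 0, against 8.18% and 4.62% of all genes. In tumors, fibroblast markers were 626 to 1389 CPM in D2.1 and 129 to 218.4 CPM in D2A1, and their part in these differences was not tested. Single markers did not all follow the sum: in SCID beige tumors Mfap5 had a mean of 31.7 CPM in D2.1 and 64.9 CPM in D2A1, and Clec3b 3.37 and 2.57 CPM.

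Junction and differentiation genes of epithelia were mixed between the lines. In culture 11 of 22 were higher and 7 lower in D2.1 (median 0.43), against 24.2% and 20.7% of all genes. Pkp1, a desmosomal plakophilin, had a log2 fold change of 4.42 (adjusted p = 4.1e-06) and Prss8, a membrane serine protease, had 50 to 76 counts in D2.1 and 1 to 3 in D2A1 cultures, a ratio of 32.3 (95% interval 13.6 to 100.7). The tight junction genes Cgn (-4.77, adjusted p = 4.5e-07) and Ocln (-4.28, adjusted p = 0.0030) were lower. In Balb/c tumors 8 of 30 were higher and 2 lower (median 0.86), against 16.8% and 15.8% of all genes, led by Ehf (3.38, adjusted p = 0.014), an epithelial Ets factor, and Cldn1 (3.30, adjusted p = 1.2e-04), a claudin, while Pkp2, another plakophilin, was lower (-1.17, adjusted p = 0.012). In SCID beige tumors 7 of 19 were higher and 5 lower (median 0.75), against 17.2% and 14.8% of all genes. Prss8 (3.74, adjusted p = 0.0047) and Cldn1 (2.58, adjusted p = 5.0e-04) were the highest there, and Cgn (-2.20, adjusted p = 0.033) and Pkp2 (-1.27, adjusted p = 0.0011) the lowest. Cldn1 went the other way in culture, with 8 to 25 counts in D2.1 and 50 to 67 in D2A1 (ratio 0.219, 95% interval 0.155 to 0.305). Without D2.1 replicates 1 and 4, 6 were higher and 2 lower in Balb/c mice. The share of all genes without these tumors is not given here.

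Of other cadherins and catenins, 4 of 6 tested were higher and 1 lower in D2.1 culture (median 1.04), 3 of 10 higher and 4 lower in Balb/c tumors (median -0.33, and 1 higher without D2.1 replicates 1 and 4), and 0 of 10 higher and 4 lower in SCID beige tumors (median -0.11). Of all genes, 24.2% were higher and 20.7% lower in culture, 16.8% and 15.8% in Balb/c and 17.2% and 14.8% in SCID beige tumors. These shares are of the fits with all replicates. Cdh15, the M-cadherin of muscle precursors, was higher in culture (4.75, adjusted p = 1.0e-06) and in Balb/c tumors (1.10, adjusted p = 0.0035). Cdh17, a cadherin of liver and intestine, was higher in D2.1 culture (2.73, adjusted p = 5.7e-06) and lower in D2.1 tumors of Balb/c (-3.49, adjusted p = 0.0050) and SCID beige mice (-3.19, adjusted p = 2.0e-04). Cdh5, the VE-cadherin of endothelium, was lower in D2.1 tumors of both hosts (-1.59, adjusted p = 7.1e-04, and -2.01, adjusted p = 2.2e-05), and the sum of 7 endothelial markers, Cdh5 among them, was 73.7 to 169 CPM in D2.1 and 210.7 to 293 CPM in D2A1 tumors. Of the other 6, Pecam1, Kdr, Tek, Tie1 and Emcn had lower means in D2.1 tumors of both hosts, and Vwf had higher ones, at 20.4 against 7.68 CPM in Balb/c and 11.05 against 5.11 CPM in SCID beige mice. The part of endothelium in the Cdh5 difference was not tested. Ctnnal1, a catenin-like gene, was lower in D2.1 culture (-1.77, adjusted p = 1.7e-05), and Ctnnd2, which encodes delta-catenin, was higher in Balb/c tumors (3.15, adjusted p = 0.013).

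The list of other EMT-associated regulators had no common direction, with 7 of 20 higher and 5 lower in culture (median 0.15), 6 of 21 and 3 in Balb/c tumors (median -0.18, 4 and 3 without D2.1 replicates 1 and 4, 6 and 7 with the replicate block) and 5 and 5 of 20 in SCID beige tumors (median -0.03). The shares of all genes higher and lower were 24.2% and 20.7% in culture. They were 16.8% and 15.8% in Balb/c and 17.2% and 14.8% in SCID beige tumors. These shares are of the fits with all replicates and no block. Klf8 and Tbx3 in culture and Snai3 in Balb/c tumors passed the filter only through the line where they were high. Their calls add no support. Id4, an inhibitor of basic helix-loop-helix factors, was higher in D2.1 culture (3.72, adjusted p = 6.3e-05) and in SCID beige tumors (2.19, adjusted p = 0.031). Prrx1, a mesenchymal homeobox gene that fibroblasts express, was higher in D2.1 tumors of Balb/c (2.21, adjusted p = 1.3e-04) and SCID beige mice (2.30, adjusted p = 3.7e-05). It was also higher in D2.1 culture, with 7796 to 10599 counts against 776 to 790 in D2A1 (ratio 9.25, 95% interval 8.87 to 9.65). Klf8 had 12 to 44 counts in D2.1 and 0 in every D2A1 culture, at least 8.66-fold higher against a floor of 3 counts per library, and Snai3, another Snail gene, had 11 to 23 counts in D2.1 and 0 in every D2A1 tumor of Balb/c mice, at least 5.69-fold higher. Tbx3, a T-box factor of the mammary gland, went the other way. It had 0 to 3 counts in D2.1 and at least 188 in D2A1 cultures (ratio 0.00672, 95% interval 0.00218 to 0.0158) and was lower in D2.1 tumors of Balb/c (-2.42, adjusted p = 0.021) and SCID beige mice (-3.68, adjusted p = 6.2e-05). Foxq1 was lower in culture (-2.66, adjusted p = 0.0017), Foxc1 in Balb/c tumors (-1.52, adjusted p = 5.3e-04) and Tbx2 in SCID beige tumors (-2.57, adjusted p = 0.0018).

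**Figure D4:**
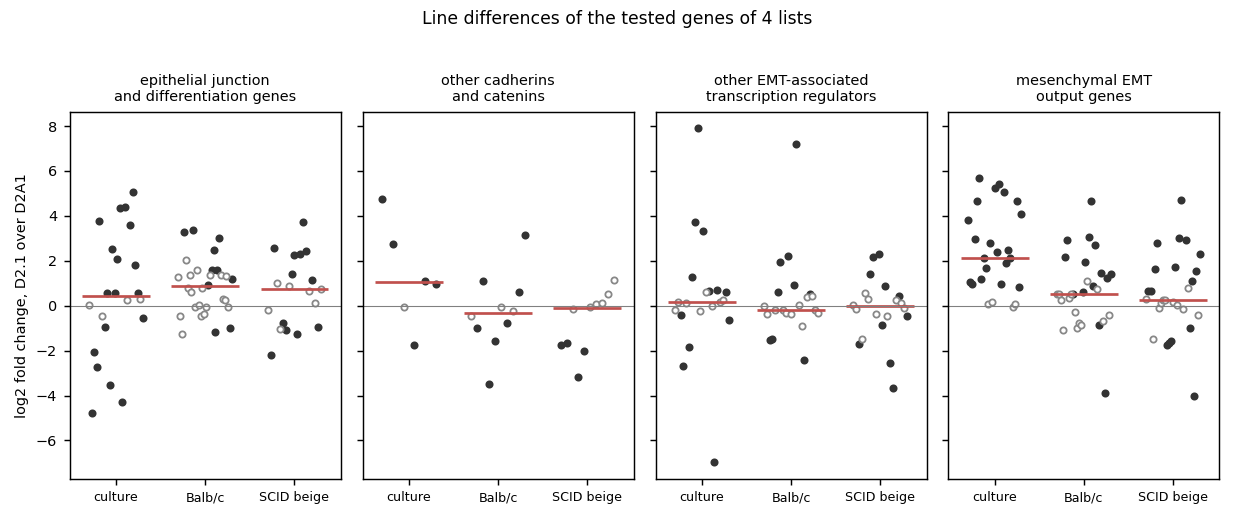
Log2 fold change of D2.1 over D2A1 (y axis) for the tested genes of 4 lists, in culture, Balb/c tumors and SCID beige tumors (x axis). Each point is a gene, filled where the adjusted p is under 0.05, and red lines are list medians. The mesenchymal output genes have medians of 2.14, 0.53 and 0.24.

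Over all 24 libraries, the protein-coding genes whose log2 CPM went most closely with each of the 10 were found among 14048 genes that passed the filter. The highest Pearson r was that of Epcam with Bcam, a laminin-binding surface protein (r = 0.96), and Snai1 went most closely with Adam8, a surface protease (r = 0.96). Zeb2 was closest to Bach1, a transcription repressor (r = 0.93), Snai2 to Sema3e, a semaphorin (r = 0.93), Vim to Dusp10, a phosphatase (r = 0.91), Cdh1 to Cdh15 (r = 0.90) and Zeb1 to Zbtb43 (r = 0.90). For Twist2 it was Syt8 (r = 0.87), for Twist1 Vps37d (r = 0.81) and for Cdh2 Plin4, a lipid droplet gene of fat cells (r = 0.79). Next to these came Aldh1b1 for Epcam (0.96), Angptl4 for Snai1 (0.95), BC005537 for Zeb2 (0.93), Hnrnpul2 for Snai2 (0.91), Def6 for Cdh1 (0.90), Ginm1 for Vim (0.88), Tbc1d24 for Zeb1 (0.88), Hist1h2bq for Twist2 (0.86), Macrod1 for Twist1 (0.79) and Serpinb9 for Cdh2 (0.77). These points share lines, hosts and tables, so the values describe the 24 libraries and nothing else.

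Within groups of tumors, some of the 10 also moved together. Over the 18 tumors, deviations from the group means had a Pearson r of 0.74 for Zeb1 with Zeb2, 0.64 for Cdh1 with Epcam, 0.56 for Vim with Twist1, 0.55 for Epcam with Twist2, 0.45 for Cdh1 with Twist2, -0.50 for Epcam with Zeb1 and -0.43 for Cdh1 with Zeb1. Over the same tumors, Epcam had r = 0.72 with the adipocyte markers, 0.63 with the milk markers, 0.57 with the keratinocyte markers and 0.44 with the muscle markers, and Twist1 had r = -0.73 with the endothelial markers. Zeb2, which macrophages also express, had r = -0.31 with the macrophage markers. These correlations are descriptions, and the part of host tissue in them was not tested.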

How the data were processed

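RNA-seq of 6 cultures and 18 single tumors was analysed. The authors deposited raw counts for each gene and, beside them, FPKM. For 100% of genes with counts, 1 gene length gave the FPKM of all libraries from count and library total (tolerance 0.1%). The authors sequenced at Novogene on an Illumina NovaSeq instrument and used Novogene's pipeline or GENAVi. The submitters' processing notes name STAR and mm10. The counting program, annotation and strand setting are not given in the sources used here. The lengths implied by FPKM differ by over 1% between the cell and tumor tables for 75.2% of 19189 shared genes, so FPKM were not compared between tables. Library totals were 16837260 to 24818234 counts in culture and 13566949 to 18355153 in tumors. Intervals and floors cover counting error only. Ensembl identifiers were matched to GENCODE M21.

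Counts were tested with edgeR 4.0.16 in R 4.3.3 (TMM, default expression filter, robust quasi-likelihood fit), with Benjamini-Hochberg adjustment over all genes tested and a threshold of 0.05. Only the groups compared entered a fit, and the interactions used 4 groups each. Standard errors are the size of the log2 fold change divided by the square root of F. Permutation tests were exact and 2-sided. For correlations a prior count of 2 was used. The fit of each comparison was first run on simulated counts in which 200 genes were altered. The outcome of these runs is not given here, and no result rests on it. All 38 replicate pairs within groups differed beyond counting noise.

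The 10 genes and the 4 lists were chosen with earlier results of these data known, and nothing is supported by that choice. All 10 are given in each comparison. Of each list, the 2 largest rises and the 2 largest falls past the threshold were named per line comparison, and the 2 genes most correlated with each of the 10 were computed. Markers were named where they moved with a result. Some list genes that the rule names are not reported here.

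Labels give groups the same replicate numbers. Whether they pair libraries was judged from the correlation of same-numbered libraries, each taken as its deviation from the group mean. It was 0.184 to 0.491 between the lines in culture and 0.100 to 0.491 in Balb/c mice. Between D2A1 tumors and culture it was 0.131 to 0.273. In these comparisons it was over 0.1 for every number, and in the others it was not. In no comparison did every library correlate best with its own number, and the labels name no shared unit. These correlations therefore do not establish pairs. All main fits were without a block, which served only as an alternative.

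Alternatives were DESeq2 1.42.0, its size factors in edgeR, a filter of at least 10 counts, no filter, the replicate block, all tumors in 1 fit, a log2 fold change beyond 1 and each library left out. Leaving out D2.1 Balb/c replicates 1 and 4 was added after seeing the data. Among the alternatives, a share of all genes called is given only for the log2 fold change beyond 1. Counts of genes called under the others are not set against such a share.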

Additional observations from a re-analysis of the deposited data

Results flagged for a closer look

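Among 40 groups of 4 or 5 tumors (10 genes in 4 groups), 3 held a library far from the others by Dixon's criterion, and chance alone gives about 1 in 20. Cdh2 in D2A1 tumors of Balb/c mice was highest in replicate 1, at 0.266 FPKM. Epcam in D2.1 tumors of SCID beige mice was highest in replicate 4, at 5.30 FPKM, the tumor that was also highest in Cdh1. Snai1 in D2A1 tumors of SCID beige mice was highest in replicate 5, at 92.1 FPKM.

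The line difference in SCID beige tumors departed from that in culture for 4 genes by the interaction test. On the log2 scale it was -4.03 for Cdh1, -2.43 for Snai1, -5.09 for Twist2 and 1.64 for Zeb1. Twist2 had 1 to 3 counts per library in D2A1 culture, so its value adds no support. The host cells of the tumors and the separate tables were not tested as sources of these departures.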

How the results depend on the processing

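Of 1371 values of the 10 genes under alternatives, 1284 kept their direction and side of the threshold, 15 lost a call, 21 gained one and 51 changed sign. None of the latter had an adjusted p under 0.05 in either fit, and the lowest was 0.32. The number of genes called in Balb/c mice was 3 with a log2 fold change beyond 1, and in D2A1 tumors between hosts 2 with DESeq2. With each library left out, the numbers called were 6 to 8 in culture, 4 to 6 in Balb/c and 2 to 4 in SCID beige mice, 0 to 0 between hosts and in their interaction, 4 to 6 and 5 to 6 between tumors and culture of D2.1 and D2A1, and 4 to 5 in the interaction with setting. DESeq2 also called Vim (0.49, adjusted p = 0.034) and Snai1 (0.57, adjusted p = 0.046) between D2.1 tumors and culture, and Vim (0.35, adjusted p = 0.042) between D2A1 tumors and culture.

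Changes of sign were these. Without D2.1 Balb/c replicates 1 and 4, Cdh2 was at -0.59 in Balb/c mice and -0.54 in the interaction of line and host, and Epcam at -0.13 between hosts in D2.1. With no filter Zeb1 was at -0.0039 between D2A1 tumors and culture. Over libraries left out in turn, the log2 values of those that turned ranged from -0.11 to 0.38 for Cdh2 in Balb/c mice and from -0.14 to 0.22 for Zeb1 in SCID beige mice. Between hosts they ranged from -0.37 to 0.30 for Zeb2, -0.16 to 0.070 for Snai2 and -0.0024 to 0.17 for Vim in D2.1, and from -0.032 to 0.44 for Snai2 and -0.45 to 0.18 for Twist2 in D2A1. In the interaction with host they were -0.25 to 0.79 for Cdh2 and -1.07 to 0.15 for Epcam. In the interaction with setting they were -0.73 to 0.16 for Epcam, -0.18 to 0.11 for Twist1, -0.047 to 0.28 for Vim and -0.52 to 0.03 for Zeb2, and between D2A1 tumors and culture -0.13 to 0.19 for Zeb1. The cause was not tested.

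The replicate block gave 6 genes called in culture, 7 in Balb/c and 3 in SCID beige mice, and 0 between hosts. It gave 0 in the interaction of line and host, 5 and 6 between tumors and culture, and 5 in the interaction with setting. The share of all genes called under the block is not given here, so these counts show nothing particular to the listed genes. The block changed 6 of 85 calls. Of these, Zeb1 and Zeb2 in Balb/c mice were in a comparison where same-numbered libraries correlated at over 0.1 for every number. The others were in comparisons where this did not hold. In SCID beige mice they were Twist2 (-1.85, adjusted p = 0.064) and Zeb2 (0.75, adjusted p = 0.025). Cdh2 was the gene between D2.1 tumors and culture (-3.10, adjusted p = 0.019) and in the interaction with setting (-4.33, adjusted p = 0.046). Under the block Cdh2 in Balb/c mice was at -0.0093, Snai2 between hosts in D2.1 at 0.052 and Zeb1 between D2A1 tumors and culture at -0.22. Correlations of same-numbered libraries were -0.161 to 0.344 between lines in SCID beige mice, -0.135 to 0.041 between D2.1 tumors and culture, and -0.441 to 0.169 between hosts, and not every library correlated best with its own number in any comparison.

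Depth limits Cdh2 (0 to 24 counts per library), Twist2 (1 to 77) and, in culture, Epcam (1 to 16). CPM in place of FPKM moved 8 of 60 ranks of groups, all for Cdh2, Twist2 and Zeb1.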
